A study of Homo sapiens with 2 samples.

Results

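The metallothioneins MT1E, MT1F, MT1G, MT1H, MT1X and MT2A, the metal-sensing transcription factor MTF1, the zinc exporter SLC30A1 and the copper transporters SLC31A1 and SLC31A2 were examined in the Hodgkin lymphoma (HL) cell line L-428. These 10 genes were chosen by name, with earlier results of these data known. Every probe set annotated to exactly 1 of these symbols was taken, which gave 20 probe sets. The 10 genes stand among 11794 measured genes on the array. Both conditions were L-428 cells transfected with a vector that also encodes the green fluorescent protein EmGFP. The control cells carried pcDNA6.2-GW/EmGFP-miR-neg and the knock-down cells carried pcDNA6.2-GW/EmGFP-miR-PRAME, an artificial microRNA against the cancer/testis antigen PRAME, and stable transfectants were selected with blasticidin. Whether these were pools or clones was not stated in the sources used here, and L-428 is 1 cell line. There was 1 Affymetrix HG_U133PLUS2.0 array for each condition, so no test and no SD between cultures can be given, and differences are described by their size.

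Metallothioneins are small proteins rich in cysteine that bind zinc and copper and also trap cadmium and platinum compounds such as cisplatin. When free zinc rises, it binds the zinc fingers of MTF1, which then occupies metal response elements in the promoters of metallothionein genes and of SLC30A1 and increases their transcription. SLC30A1 carries zinc out of the cell, SLC31A1 takes up copper through the plasma membrane, and SLC31A2 is its relative, found mostly on endosomes and lysosomes. The genes of the MT1 and MT2 type lie in 1 cluster on chromosome 16.

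The core of the metal response element (TGCACNC or TGCGCNC, searched on both strands) is shown for members that are known targets of MTF1. RefSeq promoter windows of 300 bases (250 before to 50 after the gene start, GRCh38.p14) were at hand for 6 of the 10 genes. MT1E, MT1F, MT1G and SLC31A2 were not among them. The windows of MT2A and MT1H held 8 matches each, that of MT1X held 4 and that of SLC30A1 held 2. No match was found in the windows of MTF1 and SLC31A1, and no matches overlapped. Of all 35116 windows, 29.6% held at least 1 match, 8.60% at least 2, 0.601% at least 4 and 0.0199% at least 8. A match describes the letters only and does not show that a factor binds there. The 250 bases before the gene start of the 4 genes with matches are given here from 5′ to 3′ on the strand of the gene, with matches in capitals. In MT2A and in SLC30A1, 1 further match lies behind the gene start and is not shown.
MT2A (chr16:56608334-56608583, plus strand): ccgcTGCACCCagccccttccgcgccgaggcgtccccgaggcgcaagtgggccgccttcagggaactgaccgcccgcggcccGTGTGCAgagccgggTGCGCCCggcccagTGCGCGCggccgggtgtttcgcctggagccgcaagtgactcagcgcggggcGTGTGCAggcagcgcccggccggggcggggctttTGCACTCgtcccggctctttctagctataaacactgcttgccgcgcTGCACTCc
MT1H (chr16:56669564-56669813, plus strand): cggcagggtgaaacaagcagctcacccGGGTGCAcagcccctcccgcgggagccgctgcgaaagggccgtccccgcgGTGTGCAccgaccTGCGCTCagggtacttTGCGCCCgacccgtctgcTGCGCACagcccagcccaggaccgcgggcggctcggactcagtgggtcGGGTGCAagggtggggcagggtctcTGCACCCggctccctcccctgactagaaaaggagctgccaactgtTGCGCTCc
MT1X (chr16:56682220-56682469, plus strand): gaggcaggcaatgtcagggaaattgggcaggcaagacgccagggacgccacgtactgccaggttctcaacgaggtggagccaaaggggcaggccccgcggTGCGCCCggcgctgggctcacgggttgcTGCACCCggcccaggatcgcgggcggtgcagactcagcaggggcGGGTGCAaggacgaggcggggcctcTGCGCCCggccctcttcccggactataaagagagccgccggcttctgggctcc
SLC30A1 (chr1:211579162-211579411, minus strand): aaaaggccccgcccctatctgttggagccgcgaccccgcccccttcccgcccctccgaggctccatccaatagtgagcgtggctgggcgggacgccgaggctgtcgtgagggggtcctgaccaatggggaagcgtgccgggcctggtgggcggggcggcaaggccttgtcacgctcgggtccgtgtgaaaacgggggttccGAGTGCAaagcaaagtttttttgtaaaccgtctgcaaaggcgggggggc

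The labels could be checked with PRAME. Markers of the cell type were chosen after their values were seen, so they describe the cells and are no check. PRAME (204086_at) had a signal of 2115 with the control vector and 1251 after knock-down, a log2 ratio of -0.80. Signals are MAS5 intensities on a linear scale, and all ratios are knock-down over control cells after subtraction of 0.045, the median of all probe sets kept. A probe set was kept if its mean log2 signal reached the array-wide median (a signal of 97.7). All 6 listed markers of Hodgkin and Reed-Sternberg cells were measured above this filter. Among them were the CD30 gene TNFRSF8 with signals of 1893 and 1667 and the chemokine CCL17 with 6090 and 5537. Of these 6 markers 3 had a log2 ratio above 0. FUT4, whose enzyme product synthesizes CD15, was the only one past 1.5-fold, with signals of 1177 and 782 in 209892_at (log2 ratio -0.63) and a log2 ratio of 0.36 in its other probe set. None of the 4 T cell probe sets (up to 85.6 and 107 in control and knock-down cells) and none of the 4 monocyte probe sets (up to 70.6 and 60.0) passed it. The summed signal of the T cell probe sets was 186 and 238, and that of the monocyte probe sets 94.2 and 128. Of 9 B cell probe sets 2 passed, for CD79A and MS4A1, with summed signals over all 9 of 581 with the control vector and 966 after knock-down. Over all probe sets, the median signal was 91.9 with the control vector and 109.9 after knock-down. The part of these higher marker sums in the results was not tested.

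Some of the 10 genes had higher signals in the PRAME knock-down cells, and none was lower by 1.5-fold. Each gene is counted at the kept probe set that had its highest mean signal. MT2A was 1.70-fold, MTF1 1.80-fold and SLC31A2 1.73-fold higher, so that 3 of the 10 genes were at least 1.5-fold higher, whereas 7.54% of all 11794 genes passed this threshold. The signal of SLC31A2 with the control vector (89.9) was below the filter, so this gene was kept only through the array on which it was higher. MTF1 was counted at 227150_at, which had its highest mean signal only through the knock-down array (731). With the control vector its signal (394) was below those of 205322_s_at and 205323_s_at, whose log2 ratios were 0.052 and 0.037. Of the 9 genes with both signals above the filter, 2 were at least 1.5-fold higher, MT2A and MTF1. The share among all genes with both signals above the filter was not computed, and 7.54% does not stand for it. No member was at least 1.5-fold lower, as were 5.42% of all genes. The median log2 ratio of the 10 genes was 0.23, beside -0.0069 for all genes. It was 0.16 over the 9 genes with both signals above the filter. Over the 6 metallothioneins, of which MT2A alone passed 1.5-fold, it was 0.12. Of the 10 genes 7 had a log2 ratio above 0, as had 49.0% of all genes. With so few genes, chosen with earlier results of these data known, and no replicates, these shares describe the 2 arrays only. In RNA from a whole culture, a change in all cells cannot be told apart from a change in the share of cells that express a gene.

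At the level of probe sets, 16 of 20 were above the filter. Of these 16, 12 had a log2 ratio above 0. Ratios are centered on the median of all kept probe sets, so as many of those lie above 0 as below. Of the 16, 4 were at least 1.5-fold higher (8.21% of all 27307 kept probe sets). They were MT2A, MTF1 227150_at, MT1E 212859_x_at and SLC31A2, the last kept only through the knock-down array. The brighter probe set of MT1E, 216336_x_at, had a log2 ratio of -0.37. None of the 16 was at least 1.5-fold lower (6.2% of all). No kept probe set of these genes reached 2-fold, and the share of all kept probe sets past 2-fold was not computed. To describe the spread at a given signal, each probe set was set beside the 1000 kept probe sets nearest in mean signal. Only 2 of the 16 lay outside the middle 95% of these, MT2A (212185_x_at) and MTF1 (227150_at), where 5% of probe sets lie by construction.

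**Figure D1:**
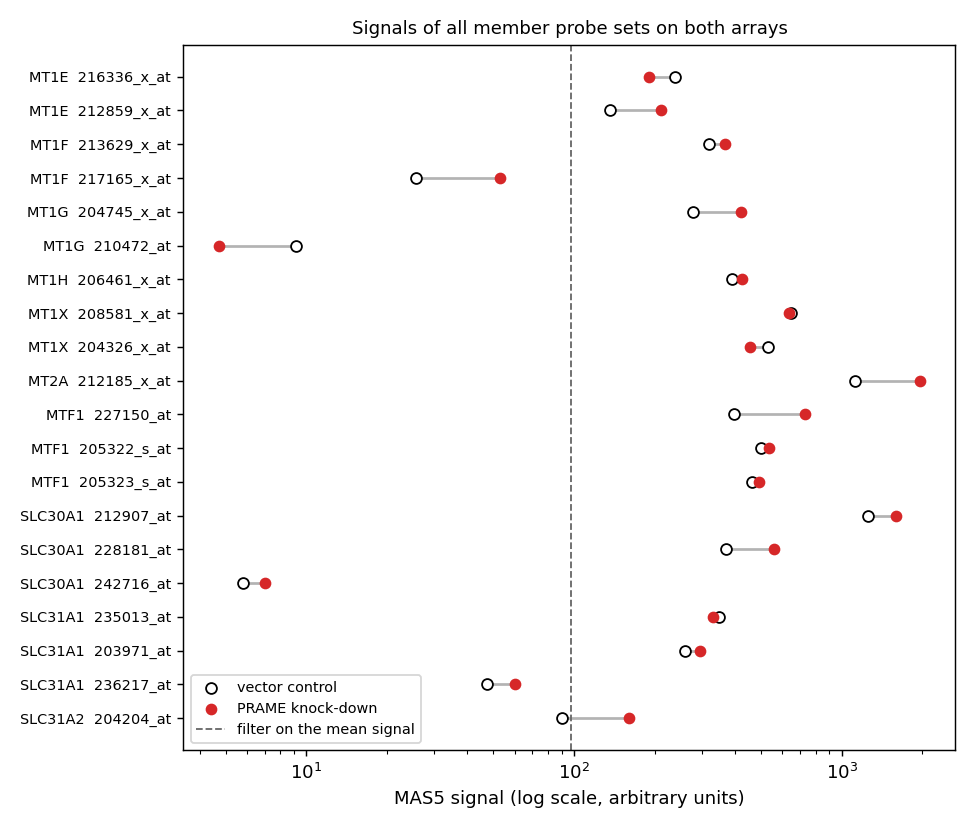
MAS5 signals (log scale) of all 20 member probe sets in L-428 cells with the control vector (open circles) and with PRAME knock-down (red circles), 1 array per condition. The dashed line is the filter at a signal of 97.7, which applies to the mean of both arrays, and the longest steps above it are those of MT2A, MTF1 227150_at and SLC31A2.

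MT2A, the metallothionein expressed most widely in human tissues, showed the largest difference above the filter among the 6 metallothionein members. Its single probe set 212185_x_at had a signal of 1125 with the control vector and 1967 after knock-down. The log2 ratio was 0.76, whereas the middle 95% of probe sets with similar signals spanned -0.74 to 0.54. The value stayed between 0.67 and 0.85 in all alternatives that kept this probe set, so MT2A was at least 1.5-fold higher in each of them.
The MT1 genes did not follow MT2A as a group. MT1G came closest, with signals of 279 and 420 for 204745_x_at, which is 1.46-fold and just below the threshold. The signal of MT1F (213629_x_at) was 318 with the control vector and 367 after knock-down, a log2 ratio of 0.16. MT1H (206461_x_at), with 390 and 423, had a log2 ratio of 0.070.
MT1X was slightly lower in the knock-down cells in both probe sets. The signals were 646 and 634 for 208581_x_at (log2 ratio -0.071) and 531 and 454 for 204326_x_at (log2 ratio -0.27). No kept probe set of MT1X or MT1H passed 1.5-fold. The promoter windows of both genes, like that of MT2A, hold matches to the core element (shown above). A relation between matches and ratios was not tested.
The 2 probe sets of MT1E went in opposite directions. The signal of 212859_x_at was 136 with the control vector and 212 after knock-down (1.51-fold higher), and that of 216336_x_at was 238 and 190 (1.29-fold lower). Their log2 ratios differed by 0.96, and 94.4% of 3104 further genes with 2 kept probe sets had a smaller range. The direction of MT1E is therefore not settled by these arrays. After loess subtraction and with an offset of 64, 212859_x_at fell below the threshold, with log2 ratios of 0.47 and 0.42.

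Of the 10 probe sets of the 6 metallothioneins, 9 carry the ending _x_at, which Affymetrix gives to sets with probes that also match other sequences, as do 7.70% of all probe sets. All 8 metallothionein probe sets above the filter were of this kind. The coding sequences of the family are highly similar, and binding of one metallothionein transcript to the probes of another was not tested. No probe set was annotated to several symbols with a metallothionein among them, and so no shared probe set had to be described apart. The 2 metallothionein probe sets below the filter were 217165_x_at for MT1F, with 25.8 and 52.7, and 210472_at for MT1G, with 9.15 and 4.71. The latter is the only metallothionein probe set of these genes without the ending _x_at, and its ratio is not well determined at such signals.
Of 11 further metallothionein genes and pseudogenes, 4 had a probe set and 2 were measured above the filter. MT3, known as the growth inhibitory factor of the brain, had a signal of 58.8 with the control vector and 221 after knock-down (205970_at, log2 ratio 1.87, and 1.18 with the offset of 64). The value in the control cells was below the filter. MT1HL1, a sequence related to MT1H, had signals of 852 and 662 (log2 ratio -0.41) in a probe set that also ends in _x_at. MT4, a metallothionein of squamous epithelia, had 9.22 and 43.2 and MT1M 3.55 and 2.09, all below the filter.

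**Figure D2:**
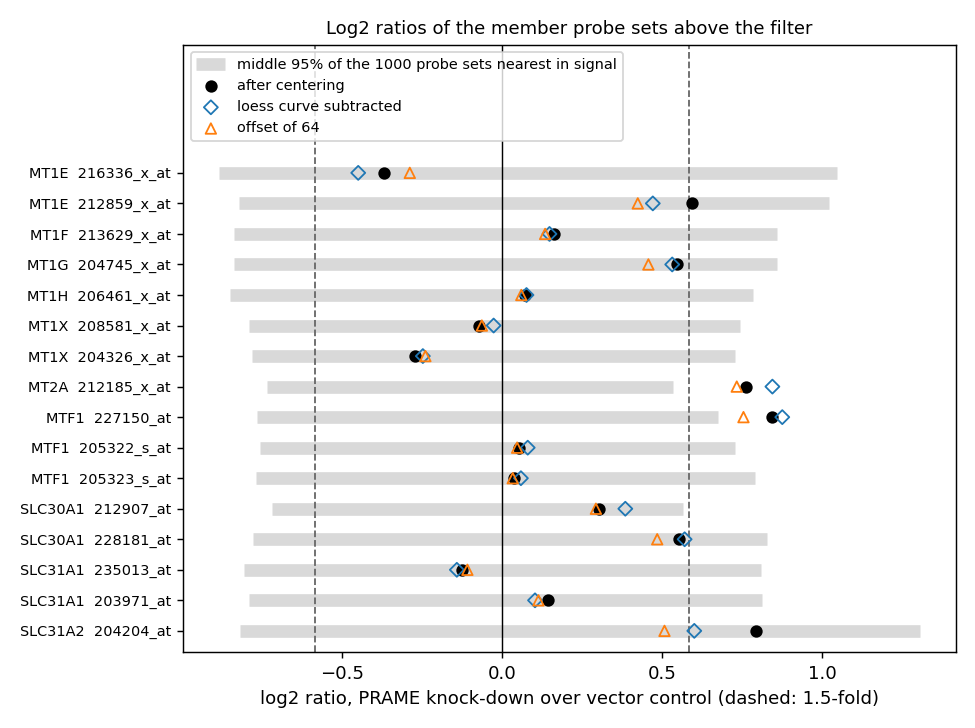
Log2 ratio (knock-down over control) for the 16 member probe sets above the filter (black points, 1 array per condition), beside the values after loess subtraction (diamonds) and with an offset of 64 (triangles). Grey bars span the middle 95% of the 1000 probe sets nearest in signal, dashed lines stand at 1.5-fold, and MT2A at 0.76 and MTF1 227150_at at 0.84 lie to the right of their bars.

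MTF1, the activator of these genes, was higher in 1 of its 3 probe sets. The signal of 227150_at was 394 with the control vector and 731 after knock-down, a log2 ratio of 0.84. In contrast, 205322_s_at had signals of 500.1 and 535 (log2 ratio 0.052), and 205323_s_at had 464 and 491 (log2 ratio 0.037). The median over the 3 probe sets was thus 0.052, and MTF1 did not pass the threshold when this median was used. The range of 0.81 exceeded the range of 81.8% of the 1556 remaining genes with 3 kept probe sets. Which of these probe sets follows the MTF1 transcript best was not tested.
SLC30A1, the zinc exporter that MTF1 induces, was higher in both kept probe sets, by less than 1.5-fold. The signal of 212907_at was 1255 with the control vector and 1597 after knock-down (1.23-fold), and that of 228181_at was 370.4 and 561 (1.47-fold). The remaining probe set, 242716_at, had signals of only 5.81 and 7.02. In all 8 alternatives the log2 ratio of SLC30A1 stayed above 0, between 0.21 and 0.43.

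The 2 copper transporters differed in their values. SLC31A1, also called CTR1, had signals of 349 and 330 for 235013_at and 259 and 295 for 203971_at. The log2 ratios of -0.13 and 0.14 were small and of opposite sign. Another probe set, 236217_at, was below the filter with 47.2 and 60.0. SLC31A2 had a signal of 89.9 with the control vector and 161 after knock-down (204204_at, log2 ratio 0.79). The middle 95% of probe sets with similar signals reached from -0.82 to 1.31, with a median of 0.21, so that the ratio of SLC31A2 lay inside. It was 0.60 after loess subtraction and 0.51, below the threshold, with an offset of 64.

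**Figure D3:**
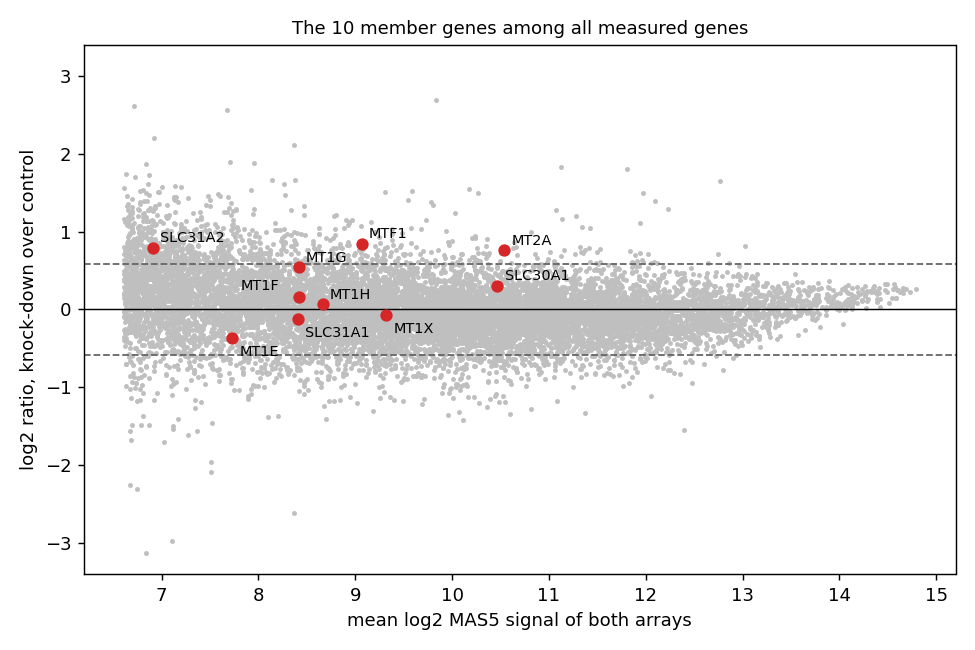
Log2 ratio (knock-down over control) plotted against mean log2 MAS5 signal for 11794 genes (grey) and the 10 member genes (red), each drawn at the brightest kept probe set, 1 array per condition. Dashed lines stand at 1.5-fold; MT2A, MTF1 and SLC31A2 lie above the upper line, MT2A at the highest signal of these 3.

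The lists of other genes for zinc and copper handling had medians close to 0, with single genes on both sides. Of the zinc exporters SLC30A2 to SLC30A10, 5 of 9 were measured and none was 1.5-fold higher or lower at its brightest probe set (median log2 ratio -0.081). The largest value was that of SLC30A6, which pairs with SLC30A5 in the secretory pathway, with a log2 ratio of 0.45. SLC30A9 (-0.14), SLC30A7 (-0.087) and SLC30A5 (-0.081) were below 0. In weaker kept probe sets, SLC30A6 had 0.66 (226162_at) and SLC30A9 had -0.60 (229500_at), both past 1.5-fold. Of the zinc importers of the SLC39 family, 11 of 14 were measured, with a median of -0.073, and again none passed 1.5-fold. SLC39A11 (-0.58), SLC39A7, which releases zinc from the endoplasmic reticulum (-0.49), SLC39A6 (-0.32) and SLC39A8 (-0.16) had the lowest values. All 4 SLC39A6 probe sets had log2 ratios below 0, and 2 of the 11 importers had a log2 ratio above 0.
Of 14 genes for copper handling, 12 were measured and none passed 1.5-fold (median -0.071). The copper chaperone ATOX1 had signals of 1271 and 912 (log2 ratio -0.52), and CCS, the chaperone that loads superoxide dismutase, had 251 and 366 (log2 ratio 0.50). The copper pumps ATP7B and ATP7A had log2 ratios of -0.40 and 0.31, the latter in the probe set with the highest signal and 0.031 in the other.
Of 7 further genes described as targets of MTF1, 5 were measured, with a median of -0.049. The growth factor PGF was 1.55-fold higher (918 and 1465 in 215179_x_at, with a second set below the filter at 48.1 and 29.2). At the brightest probe set, SELENOW (-0.14), GCLC (-0.070) and the zinc importer SLC39A10 (-0.049) were near 0. GCLC had log2 ratios of opposite sign in its weaker kept probe sets, -0.45 in 202922_at and 0.43 in 1555330_at.

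Genes of metal and oxidative stress went in both directions, with a median of 0.092 over 7 measured genes of 9. Heme oxygenase HMOX1, which cadmium and oxidants induce, was the only one past 1.5-fold at the brightest probe set. It had a signal of 104 with the control vector and 217 after knock-down (2.02-fold higher, log2 ratio 0.70 with the offset of 64). DNAJB1 (-0.42), GCLM (-0.29) and TXNRD1 (0.33) followed in size, each at its brightest probe set. In weaker kept probe sets, DNAJB1 had 0.015 (200664_s_at) and GCLM had 0.48 (236140_at) and -0.42 (234986_at). SLC7A11, the cystine transporter, had log2 ratios of 0.20, 0.83 and 0.70 in its 3 probe sets, of which the first has the highest signal. It is named here after its values were seen.
Glucocorticoids also induce MT2A and MT1X. Of the 4 measured genes of 6 in the glucocorticoid response list, 0 had a log2 ratio above 0, and the median was -0.29. The phosphatase DUSP1 was 1.83-fold lower (4945 and 2785 in 201041_s_at), FKBP5 had a log2 ratio of -0.30, the receptor NR3C1 of -0.28 and TSC22D3 of -0.00032. DUSP1 has 3 probe sets with log2 ratios from -0.87 to 0.13.

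**Figure D4:**
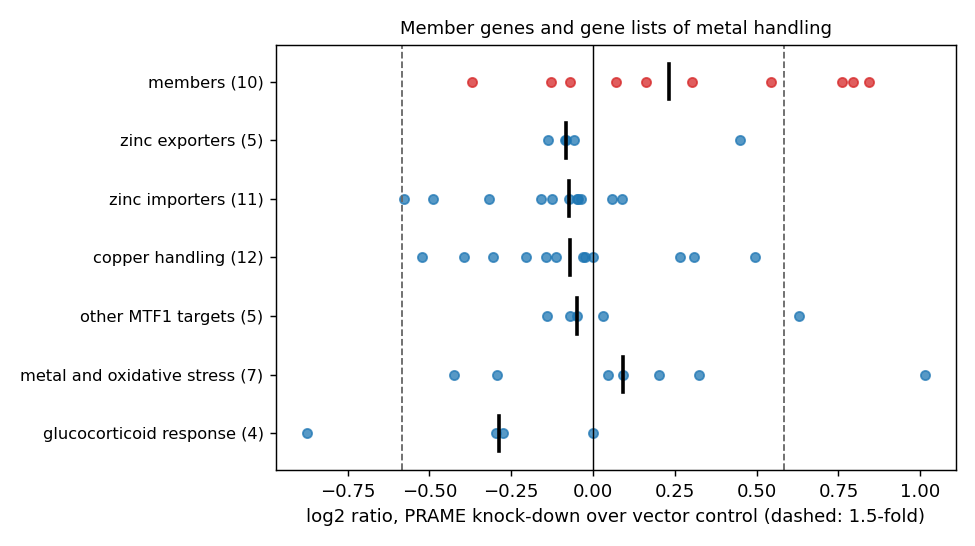
Log2 ratios (knock-down over control) for the 10 member genes (red) and for 6 lists of related genes (blue), 1 point per measured gene with their number in brackets, 1 array per condition. Black bars are medians, from -0.29 for the glucocorticoid response to 0.23 for the members, and dashed lines stand at 1.5-fold.

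The genes next to the members on their chromosomes, other metallothioneins left out, were examined as well. The 20 measured genes around the metallothionein cluster on chromosome 16, 10 on each side, had a median log2 ratio of -0.11. Only SLC12A3 was past 1.5-fold, with a log2 ratio of 1.01. MT2A (0.76), MT1G (0.54), MT1F (0.16), MT1H (0.070) and MT1X (-0.071) were above the median of the surrounding genes. MT1E (-0.37 at its brightest probe set) was below it. The surrounding genes ranged from -0.37 to 1.01, and BBS2, the next measured gene before the cluster, had a value of 0.53, similar to that of MT1G. Around MTF1 on chromosome 1 no gene passed 1.5-fold (median -0.022, values from -0.32 to 0.23).
The genes around SLC30A1, also on chromosome 1, had a median of 0.12, and 16 of 20 were above 0. The log2 ratio of SLC30A1 was 0.30, a value that lies within the range of these genes (-0.18 to 1.51). Around the neighbours SLC31A2 and SLC31A1 on chromosome 9 the median was -0.16. There 3 of 20 genes were at least 1.5-fold lower and none was higher, while SLC31A2, kept only through its signal after knock-down, had a log2 ratio of 0.79.

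**Figure D5:**
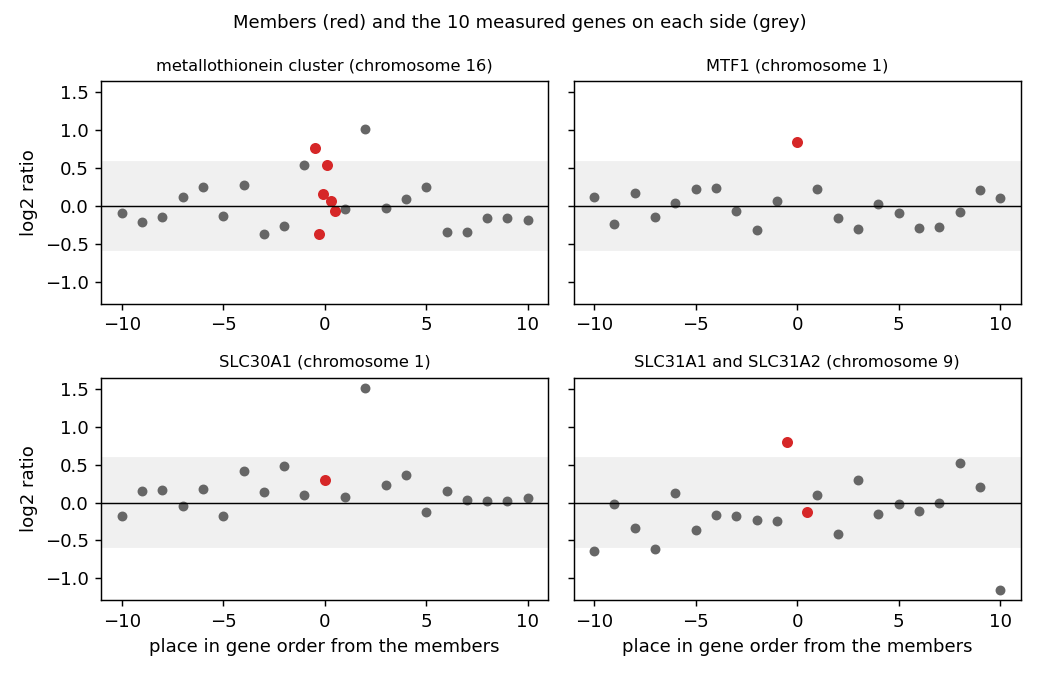
Log2 ratio (knock-down over control) for members (red) and for the 10 measured genes on each side in chromosome order (grey), 1 array per condition; the grey band marks values under 1.5-fold. MTF1 (drawn at 227150_at) and SLC31A2 (below the filter with the control vector) lie above all of their 20 neighbours, whereas SLC30A1 lies among them.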

How the data were processed

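Total RNA of L-428 cells with the control vector or the PRAME knock-down vector was hybridized to 1 array each. The authors processed the arrays with Affymetrix Expression Console 1.1, and the deposited values are linear MAS5 signal intensities of 54675 probe sets. MAS5 subtracts background and scales each array, and both had a mean of 500.1 without the highest and lowest 2% of values. The general series text names another cell line and array type, and the sample labels and the paper were followed. The number of probe sets fits the array type given in the paper but does not bear on the cell line. The authors' RMA values were not analyzed here. After removal of 62 control probe sets, log2 of the signals was taken with no offset, the 27307 probe sets whose mean reached the median were kept, and log2 ratios were centered. The platform annotation named 41097 probe sets with 1 symbol, 1801 with several and 11777 with none. It names no genome build, so RefSeq (GRCh38.p14) served for symbols, gene order and promoter sequences only.

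With 1 array per condition, differences were described by thresholds of 1.5-fold and 2-fold, and the precision is limited by the number of arrays. The members and lists were chosen with earlier results of these data known. Named are all members with every probe set, PRAME, and up to 4 genes per list with the largest absolute log2 ratios. The markers, chromosome neighbours, SLC7A11, MT4, MT1M, TFRC and single probe sets of list genes named besides were chosen after their values were seen. The code was tested on simulated data. Alternatives were no centering, quantile normalization, loess subtraction (span 0.4), an offset of 64, a filter at the 75th percentile or none, the median over probe sets, and leaving out sets that end in _s_at, _x_at or _a_at. The tools were Python 3.11.15 with statsmodels 0.14.6, pandas 2.3.3, numpy 2.4.6 and matplotlib 3.10.9.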

Additional observations from a re-analysis of the deposited data

How the results depend on the processing

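The number of members at least 1.5-fold higher was 2 to 4 in the 8 alternatives, and none was 1.5-fold lower in any of them. MT2A passed in the 7 alternatives that measured it. It was not measured without the endings _s_at, _x_at and _a_at, where 4 of the 10 genes were left. MTF1 passed in 7 of 8 and dropped to a log2 ratio of 0.052 with the median over its probe sets. SLC31A2 dropped to 0.51 with the offset of 64 and was not measured with the filter at the 75th percentile. MT1G passed without centering (0.59). The median log2 ratio of the members was 0.59 with the filter at the 75th percentile, where 4 genes were left, and MT1E changed its sign to 0.11 with the median over its probe sets. MT1H changed its sign to -0.025 without a filter. The values named here apart, changes were smaller than 0.33 on the log2 scale, the pooled SD of different probe sets of one gene, a value that says nothing of the spread between cultures. Low signals limit SLC31A2, MT3 and HMOX1, since the 6910 kept probe sets with a mean signal under 200 had a median log2 ratio of 0.16. The medians of the gene lists and of the chromosome neighbours lay between -0.37 and 0.24 in all alternatives, and those near 0 could change sign, as did SLC31A1 (0.0081 with the median over its probe sets). No replicate could be left out. No paired analysis was possible because there was 1 array per condition.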

Other observations

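Genes of iron handling, a list chosen after the other values were seen, had a median log2 ratio of 0.015 over 12 measured genes. None was 1.5-fold higher or lower at its brightest probe set. The transferrin receptor TFRC, which takes up iron, had signals of 7570 with the control vector and 7382 after knock-down (208691_at, log2 ratio -0.082). The ferritin light chain FTL was higher in both probe sets, with log2 ratios of 0.17 and 0.37. The largest values were those of the mitochondrial iron importer SLC25A37 (0.44 at its brightest probe set, and its 8 kept probe sets ranged from -0.81 to 0.44) and of NCOA4, which delivers ferritin to lysosomes (-0.31).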
